A study of Mus musculus with 41 samples.

Results

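Type 2 conventional dendritic cells were picked out of a droplet-based single-cell RNA sequencing atlas of the mouse small intestine, and they numbered 252 of 58067 cells. A cell was chosen by its raw unique molecular identifier (UMI) counts, the number of distinct RNA molecules read per gene. It had to hold at least 10 UMIs of Cd74, at least 1 of Flt3 and Zbtb46 together and at least 2 of Sirpa, Cd209a and Clec4a4 together. It had to hold none of Xcr1, Clec9a, Siglech, Cd3d, Cd3e, Trac or Cd79a, at most 1 UMI of C1qa, C1qb and C1qc together and at most 1 of Ccr7. All cells came from female BALB/cJ mice aged 10 weeks, either wild type and untreated (controls) or labelled Food Allergy, a state induced with ovalbumin, the egg white protein. The lamina propria, the connective tissue under the gut epithelium, gave 3 control and 3 allergy libraries labelled nonTB and 1 of each labelled IgDLow. Peyer's patches, where the gut wall holds B cell follicles under a specialised epithelium, gave 10 control and 9 allergy libraries over 5 run dates, and the 2 tissues shared no run date. Titles of the patch libraries of run dates 1 and 2 say location and carry codes ending in D, I or J. These codes were summed within a date and condition. The labels do not say whether libraries came from separate mice, so p-values measure the spread between libraries, which may be technical.

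Conventional dendritic cells take up antigen, carry it to lymph nodes and show it to T cells on MHC class II molecules. Type 2 cells are the branch that depends on the transcription factor IRF4 and carries SIRPα, while type 1 cells depend on IRF8 and BATF3 and carry XCR1 and CLEC9A. In the gut type 2 cells prime helper T cell responses, those against food and worms included, and CCR7 marks dendritic cells that have matured to leave for the lymph node.

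The members fitted their label. Cd209a, the mouse DC-SIGN lectin, gave 891 UMIs over 155 of the 252 cells. Sirpa, the inhibitory receptor that binds CD47, gave 352 UMIs in 158 cells. Clec4a4, the inhibitory lectin DCIR2, gave 53 UMIs in 40 cells, and Flt3, the growth factor receptor of dendritic cells, gave 292 UMIs in 199 cells. Since these genes chose the cells, their values are a description. Other genes, which the rule did not use, were then read. Itgax (the integrin CD11c) was found in 62.3% of members (95% Wilson interval 56.2 to 68.1%) and in 1.54% of 5721 plasma cells (at least 20 UMIs of Jchain and 1 of Mzb1), at median depths of 7885.5 and 10971 UMIs. H2-Aa, an MHC class II chain, was found in all 252 members and in 68.6% of plasma cells, at 25046 UMIs in the members. Irf4 was found in 31.0% of members and in 4.67% of the 300 type 1 cells defined below, and Irf8 in 20.2% of members and 99.3% of type 1 cells. Plasma cells held Irf4 in 39.1%, since IRF4 also serves plasma cells.

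Markers of other cells were low, with a few exceptions. Among macrophage genes Mertk gave 1 UMI and Mrc1 gave 13, Adgre1 was found in 10.7% of members, and Cd68 in 69.8%, against 77.0% of type 1 cells. The monocyte gene Vcan gave 0 UMIs, which allows a share of cells with a UMI of up to 1.19% (3 counts of 252), whereas Plac8 was found in 86.5% of members and 77.3% of type 1 cells. Plasmacytoid genes were found in 11.9% (Klk1) and 1.59% (Cox6a2) of members. Tcf4, which plasmacytoid cells also need, was found in 41.7%. The B cell gene Ms4a1 gave 4 UMIs and the mast cell gene Tpsb2 gave 0. Batf3 was found in 63.9% of members against 85.7% of type 1 cells, and Cadm1 in 13.9% against 73.3%. Fscn1, Ccl22 and Socs2, genes of matured cells, were found in 13.9%, 4.37% and 4.76%. The plasma cell transcript Igha was found in 87.3% of members and 89.7% of type 1 cells, and Jchain in 71.0% and 82.7%, in cells that do not make antibody. The proliferation gene Mki67 was found in 25 members.

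The rule cut through a continuous range. At the Flt3 and Zbtb46 clause 166 members held just 1 UMI and 397 cells failed that clause alone, with a median depth of 6048 UMIs. At the Sirpa, Cd209a and Clec4a4 clause 68 members sat at 2 UMIs and 83 cells that met all else held 1. For Ccr7 37 members held 1 UMI and 19 cells that met all else held 2. For Siglech, a marker of plasmacytoid cells, 469 cells failed that clause alone, 32 of them with 1 UMI. Members had a median of 7885.5 UMIs (range 1342 to 22052) against 3034 over all cells, and a rule on counts misses shallow cells. Of the members 13 carried a barcode that another library also held, 0 barcodes were members in more than 1 library, and 4 members were called doublets.

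The share of type 2 cells was set against all cells of a library to ask how abundant they were. In lamina propria nonTB libraries they made up 1.01%, 0.994% and 1.26% of control cells and 0.643%, 0.602% and 0.590% of allergy cells, from 14 to 31 cells a library. The groups did not overlap, and the allergy libraries were lower on both run dates. The means were 1.09% ± 0.149 (SD, n = 3) and 0.612% ± 0.0277 (SD, n = 3), a difference of -0.474 percentage points and a ratio of 0.563. An exact permutation test within run dates, two-sided, gave p = 0.167, which is the smallest p that its 12 arrangements allow, so the design could not reach 0.05. Among cells with at least 10 UMIs of Cd74 the shares were 2.69% ± 0.0653 and 1.83% ± 0.161 (SD, n = 3), again without overlap. Cells with at least 1500 UMIs were then thinned to 1500 and shallower cells were left out, after which 14 control and 7 allergy cells met the rule. Those thinned shares, of the cells kept, did overlap, from 0.0966% to 0.534% in controls and from 0 to 0.219% in allergy (means 0.290% ± 0.223 and 0.133% ± 0.117, SD, n = 3). The IgDLow pair, 1 library a group and so without a test, gave 1.04% in the control (95% Wilson interval 0.715 to 1.51%) and 0.411% in allergy (0.245 to 0.688%).

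**Figure D1:**
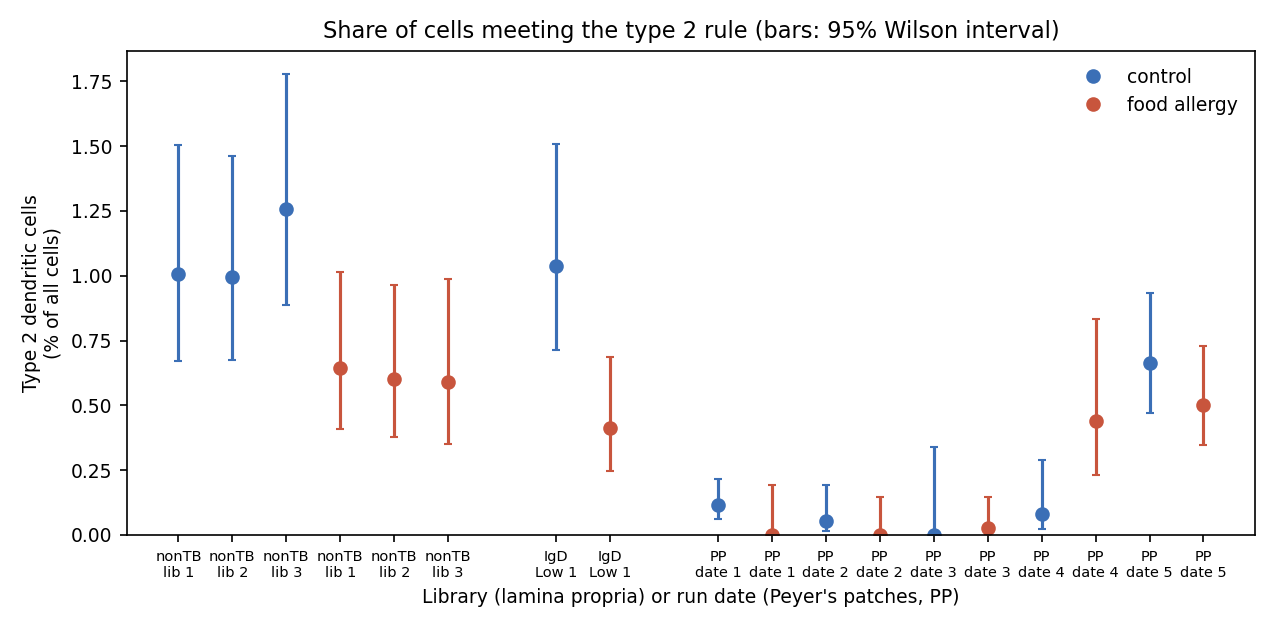
Percent of cells that met the rule (y axis) in each lamina propria library and in each Peyer's patch run date (x axis), controls in blue and food allergy in red, with 95% Wilson intervals that cover counting error only. The 3 allergy nonTB libraries sit between 0.590% and 0.643%, below all 3 controls, and Peyer's patches reach 0.440% or more only on run dates 4 and 5.

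In Peyer's patches type 2 cells were scarce on most dates. Controls held 10, 2, 0, 2 and 32 members on run dates 1 to 5 and allergy samples held 0, 0, 1, 9 and 27. On date 1 the allergy sum had location codes AI and AJ, while the controls also had CD, which held 5 of their 10 members. A count of 0 allowed shares of up to 0.151% on date 1 and 0.114% on date 2 in allergy, and 0.267% on date 3 in controls. Date 5 gave 0.663% in controls and 0.502% in allergy, and date 4 gave 0.0792% and 0.440%. The 5-date means were 0.182% ± 0.272 and 0.193% ± 0.254 (SD, n = 5 each), which differed by less than the spread between dates, lower in allergy on 3 of 5 dates (exact permutation within dates, two-sided, p = 0.938, smallest possible 0.0625). The difference changed sign, to -0.0762 points, without date 4, and to -0.0229 points with each library as a unit.

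Members were sorted by whether they held Cd209a or Clec4a4. Sirpa was found with and without Cd209a. Of the 155 cells with Cd209a 64 also held Sirpa, 22 of 63 in nonTB controls and 6 of 13 in Peyer's patch controls. Of the 158 cells with Sirpa 94 held no Cd209a. The rule asked 2 UMIs of Sirpa and Clec4a4 of a cell without Cd209a, so Sirpa is common in such cells by choice. Cells with Cd209a and no Clec4a4, called Cd209a cells here, made up 60 of 79 members (75.9%) in nonTB controls and 33 of 49 (67.3%) in nonTB allergy. In Peyer's patches they made up 10 of 46 (21.7%) in controls and 10 of 37 (27.0%) in allergy. Cells with neither gene, chosen by at least 2 UMIs of Sirpa and called Sirpa cells here, made up 19.0% and 18.4% of nonTB members and 50% and 48.6% of Peyer's patch members. Cells with Clec4a4 and no Cd209a numbered 1 of 79 in nonTB controls and 10 of 46 in Peyer's patch controls. Both Cd209a and Clec4a4 were found in 13 of the 252 cells. These genes are part of the rule, so the shares are given with no test.

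**Figure D2:**
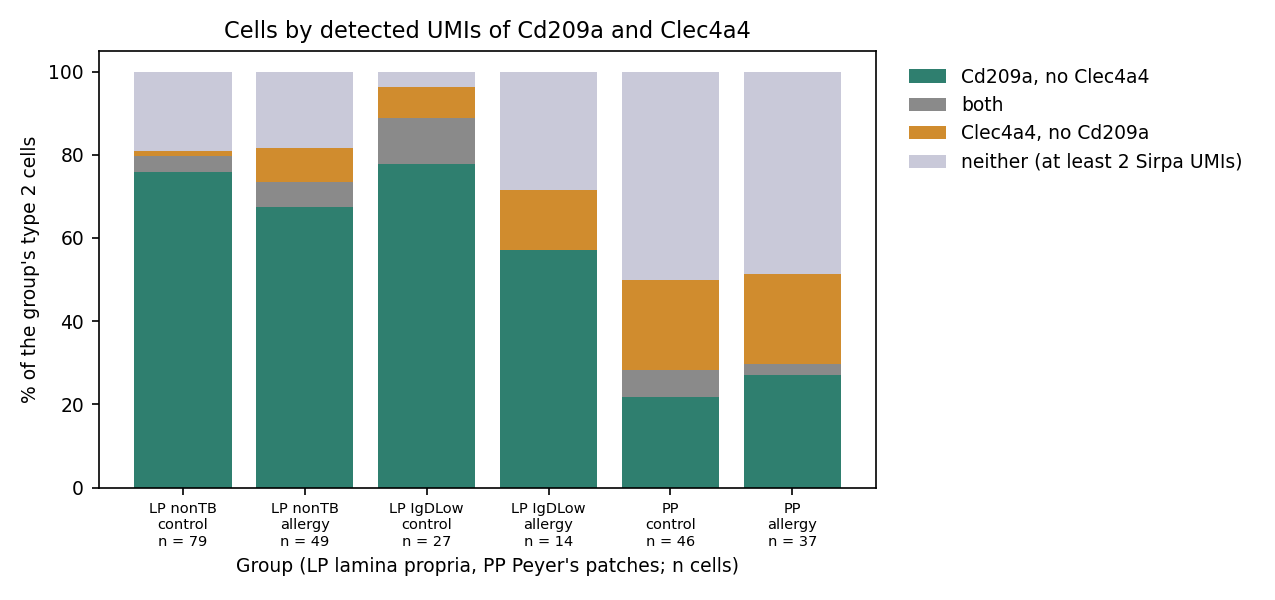
Percent of each group's members (y axis) with UMIs of Cd209a and no Clec4a4, of Clec4a4 and no Cd209a, of both or of neither, for the 6 groups (x axis, number of cells below each bar). Cells with Cd209a and no Clec4a4 reach 75.9% in nonTB controls and 21.7% in Peyer's patch controls.

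Some genes outside the rule stood at other levels in Cd209a cells than in Sirpa cells of the lamina propria. Il22ra2, the soluble decoy that binds IL-22, stood at 39.8 CPM (UMIs of the gene scaled to a common total of all UMIs) over 122 Cd209a cells (32 UMIs, 95% Poisson interval 27.2 to 56.2 CPM). It stood at 755 CPM over 29 Sirpa cells without Cd209a or Clec4a4 (224 UMIs, 659 to 860 CPM), with UMIs in 4 and 19 cells, and 1 of the Cd209a cells held 23 of those 32 UMIs. Ltb, the membrane-bound lymphotoxin beta, stood at 177 and 1152 CPM, and Il1rn, the IL-1 receptor antagonist, at 9.95 and 212 CPM. The other way, Cd209d, a lectin gene next to Cd209a in the same cluster, stood at 158 CPM and at 0 of all UMIs in Sirpa cells. Mgl2, a galactose-binding lectin, stood at 72.1 CPM and 0, and Tnfsf9, the ligand of 4-1BB, at 142 and 3.37 CPM. The 9 Clec4a4 cells held Il22ra2 at 425 CPM and Ltb at 1478 CPM, and no UMI of Cd209d or Mgl2. The directions were also read in each library, where the Sirpa sides held 1 to 6 cells. Cd209d, Mgl2 and Tnfsf9 were higher in Cd209a cells in 8 of 8 lamina propria libraries, and Il22ra2, Ltb and Il1rn were higher in Sirpa cells in 7 of 8. The exception for all 3 was the IgDLow control, whose Sirpa side had 1 cell. The intervals cover counting error only, cells of a library are not replicates, and no library held 10 cells on both sides, so no test was run. These genes were picked after their values were seen in the same libraries, so the counts of libraries do not test them. A gene of few UMIs can also give 0 on so few Sirpa cells.

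In Peyer's patches Ltb again was lower in Cd209a cells, and Il22ra2 rested on a few cells. Il22ra2 gave 5 UMIs over 20 Cd209a cells, 47 UMIs over 41 Sirpa cells, of which 42 lay in 2 cells, and no UMI in 18 Clec4a4 cells. Ltb was at 690, 1258 and 1356 CPM in the same order, and S100a4, a calcium-binding protein, at 988, 1973 and 2576 CPM. Il1rn, at 66.3, 56.1 and 0 CPM, was not higher in Sirpa cells here, and 1 Cd209a cell held 9 of 12 UMIs. Cd209d gave 6, 1 and 1 UMIs and Mgl2 gave 4, 0 and 0. Tnfsf9 gave 10, 2 and 4 UMIs, with 8 of the 10 in 1 cell. Clec10a, the galactose lectin MGL1 that neighbours Mgl2, gave 15 UMIs in the 10 Cd209a cells of patch allergy samples (162 CPM), 0 UMIs in the 10 of patch controls, and 3 UMIs in the 41 Sirpa cells, all in 1 cell. Those 10 control cells came from run dates 1, 4 and 5 (4, 1 and 5 cells), and the 10 allergy cells from dates 4 and 5 (3 and 7 cells). The dates were not matched, so the patch counts of Clec10a are a description of pooled cells. In nonTB Cd209a cells Clec10a stood at 21.0 CPM in controls and 197 CPM in allergy.

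To ask what food allergy changed inside these cells, the UMIs of all members of a nonTB library were summed and the 6 sums were compared with run date in the model. CPM of the summed libraries in a test carry TMM factors, which level differences in RNA makeup between libraries. CPM of the IgDLow pair, of plasma cells, of marker lists, of Hspa1b and of Cd209a or Sirpa cells are plain, without such factors. Of 1655 genes tested 12 passed an adjusted p of 0.05 (edgeR's quasi-likelihood test with Benjamini-Hochberg adjustment), which is 0.725% of them, 6 higher and 6 lower in allergy. A total of 190 genes were under an unadjusted p of 0.05. The stress chaperone Hspa1a, the C-type lectin Clec10a, Ms4a4c of the MS4A membrane protein family, S100a4, the cytoskeletal actin Actg1 and the nuclear RNA Neat1 rose. Arid5a, an RNA-binding protein that stabilises Il6 mRNA, Tnfaip2, a gene induced by TNF, Xlr, the metallothionein Mt1, the mitochondrial gene mt-Nd3 and Cst3, the cysteine protease inhibitor cystatin C, fell. DESeq2 called 2 of the 12, Hspa1a and Actg1.

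Hspa1a (chr17:34969190-34972156, minus strand, mm10) was the gene with the lowest p. Its level was 7.65, 6.51 and 22.8 CPM in the control libraries and 148, 160 and 427 CPM in the allergy libraries. All allergy libraries lay above all controls. The means were 12.3 ± 9.11 and 245 ± 158 CPM (SD, n = 3), a log2 fold change of 4.22 (SE 0.38, edgeR adjusted p = 8.9e-05), and 4 of 79 control cells and 14 of 49 allergy cells held a UMI. It stayed past the threshold in all 14 alternatives, with log2 fold changes from 3.70 to 4.33. In the IgDLow pair Hspa1a stood at 8.83 CPM (2 UMIs) in the control and 838 CPM (119 UMIs) in allergy. In plasma cells of the same nonTB libraries it was at 6.42 CPM in controls and 19.1 CPM in allergy, with UMIs in 2.64% and 6.44% of cells. In IgDLow plasma cells it was at 5.16 and 64.8 CPM. Its near-identical copy Hspa1b stood at 3.58 CPM (2 UMIs) and 43.9 CPM (16 UMIs) in nonTB members, and the sources used here do not say how reads were split between the copies.

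Clec10a lies at chr11:70156197-70170834, Arid5a at chr1:36307733-36324029, Tnfaip2 at chr12:111442469-111455018 and Mt1 at chr8:94179082-94180327 (GENCODE M21, mm10). The bases before the starts of Hspa1a and Mt1 are shown because these are the called genes of this comparison with a well-known stress element, read from RefSeq's GRCm38.p6 promoter table for bases -150 to -1. Capitals mark GAANNTTC, the inverted pair of heat shock element units (the letters read the same on both strands), in Hspa1a (chr17:34972157-34972306, minus strand). In Mt1 (chr8:94178939-94179088, plus strand) they mark TGCNCNC, a loose pattern for the core of the metal response element, searched on both strands. The Mt1 stretch ends before RefSeq's start, which lies past the GENCODE start given above.
Hspa1a: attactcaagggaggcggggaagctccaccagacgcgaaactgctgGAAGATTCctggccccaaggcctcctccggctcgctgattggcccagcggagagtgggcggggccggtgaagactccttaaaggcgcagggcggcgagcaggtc
Mt1: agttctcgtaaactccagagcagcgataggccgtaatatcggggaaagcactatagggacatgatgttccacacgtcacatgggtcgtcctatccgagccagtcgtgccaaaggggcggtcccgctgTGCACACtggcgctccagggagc
GAANNTTC matched once in Hspa1a, at bases -104 to -97, and in 3.95% of the 32851 stretches of this length in the table. TGCNCNC matched once in Mt1, at bases -23 to -17, and in 31.4% of all stretches. A match is a description of the letters and not of a factor at work.

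Clec10a was at 23.0, 0 and 19.0 CPM in controls and 86.9, 120 and 150 CPM in allergy, with no overlap (log2 fold change 3.05, SE 0.51, edgeR adjusted p = 0.0258). It was found in 4 of 79 and 14 of 49 cells, and in 0.798% and 0.328% of plasma cells. Ms4a4c was at 7.65, 6.51 and 19.0 CPM against 95.6, 120 and 87.0 CPM, again with no overlap (log2 fold change 2.92, SE 0.48, edgeR adjusted p = 0.0258). S100a4 did overlap, at 61.2, 6.51 and 232 CPM in controls and 174, 88.1 and 743 CPM in allergy. Its log2 fold change was 1.78 (SE 0.37, edgeR adjusted p = 0.0458), and it did not pass in 6 of 13 alternatives, with adjusted p over all 13 from 3.8e-05 to 0.586. Single cells set its highest libraries: 1 cell of control library 3, which held Clec4a4 and no Cd209a, carried 60 of that library's 61 UMIs, and 1 such cell of allergy library 3 carried 68 of 94. Actg1 rose from 3877 ± 547 to 6078 ± 516 CPM (log2 fold change 0.65, edgeR adjusted p = 0.0399). Neat1 rose from 240 ± 19.6 to 467 ± 73.4 CPM (log2 fold change 0.96, edgeR adjusted p = 0.0421). Clec10a did not pass in 4 of 13 alternatives, Ms4a4c in 5 of 13, Actg1 in 3 of 14 and Neat1 in 8 of 14. In the IgDLow pair Clec10a was at 48.6 and 49.3 CPM, Ms4a4c at 30.9 and 42.3 CPM, S100a4 at 225 and 310 CPM, and Neat1 at 362 and 845 CPM in control and allergy. In nonTB plasma cells Actg1 was at 193 and 330 CPM in control and allergy and Neat1 at 150 and 155 CPM. S100a4 was there at 1.59 and 1.56 CPM and Ms4a4c at 0.589 and 0.292 CPM.

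Among the genes that fell, Arid5a was at 145, 156 and 145 CPM in controls and 43.5, 56.1 and 15.8 CPM in allergy, with no overlap (log2 fold change -1.97, SE 0.39, edgeR adjusted p = 0.0421). Tnfaip2 went from 337, 241 and 354 CPM to 52.2, 88.1 and 182 CPM (log2 fold change -1.52, SE 0.30, edgeR adjusted p = 0.0421). Xlr went from 184 ± 28.8 to 65.6 ± 3.41 CPM (log2 fold change -1.47, edgeR adjusted p = 0.0448). Mt1 was at 643, 612 and 1241 CPM in controls and 278, 417 and 553 CPM in allergy, so its groups came close but did not overlap (log2 fold change -0.97, SE 0.19, edgeR adjusted p = 0.0421). Cst3 went from 6511 ± 1492 to 3940 ± 88.0 CPM (log2 fold change -0.72, edgeR adjusted p = 0.0479), and mt-Nd3 from 485 ± 85.8 to 202 ± 44.4 CPM (log2 fold change -1.25, edgeR adjusted p = 0.0399). Of 14 alternatives Arid5a and Mt1 did not pass in 8, Tnfaip2, Xlr and Cst3 in 6 and mt-Nd3 in 4. The IgDLow pair gave Tnfaip2 at 375 and 49.3 CPM, Mt1 at 1748 and 197 CPM, Cst3 at 7032 and 3451 CPM, Arid5a at 97.1 and 49.3 CPM, Xlr at 150 and 42.3 CPM and mt-Nd3 at 583 and 218 CPM. These IgDLow values come from 1 library a group of run date 2 and have no replicate check. In nonTB plasma cells Arid5a was at 15.9 and 8.68 CPM, Tnfaip2 at 3.77 and 0.634 CPM and mt-Nd3 at 207 and 140 CPM. Mt1 was at 202 and 178 CPM there, Cst3 at 594 and 542 CPM and Xlr at 3.06 and 3.66 CPM. Some called genes thus moved the same way in plasma cells and others did not, and whether the shifts are linked was not tested.

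**Figure D3:**
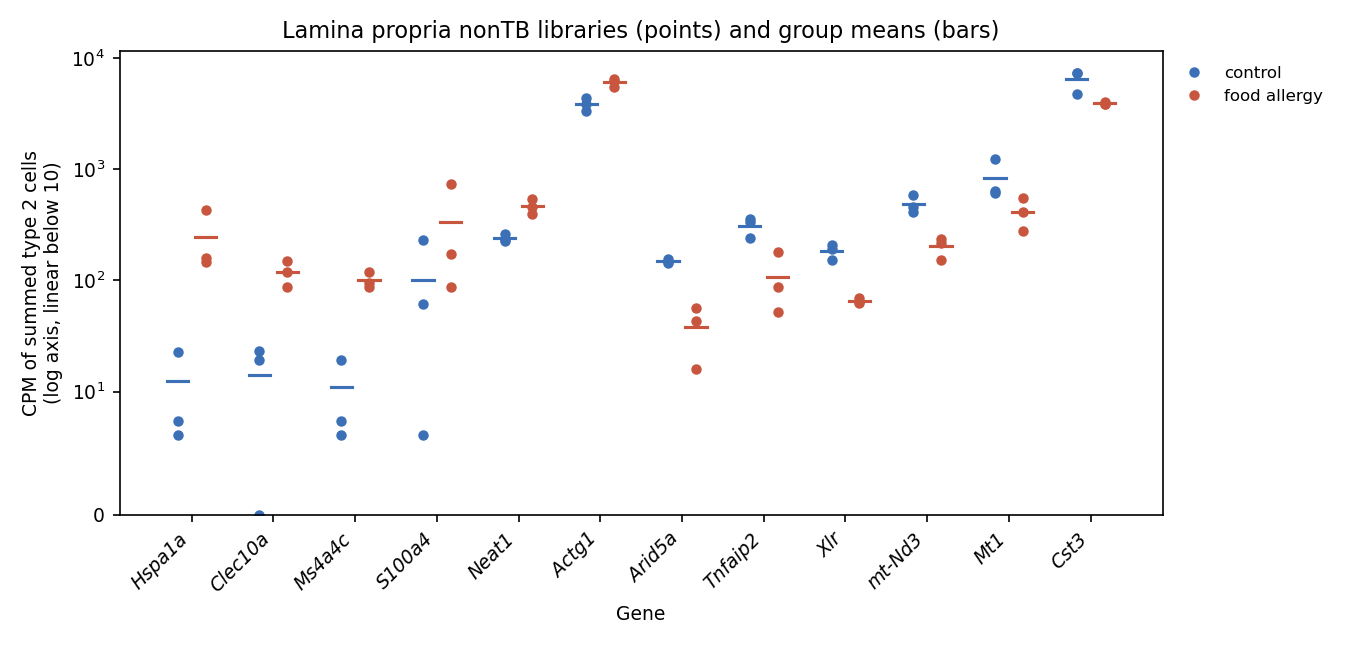
TMM-scaled CPM of summed members (y axis, logarithmic above 10 and linear below) for the 12 genes that passed the test (x axis), with 1 point for each of the 3 control (blue) and 3 allergy (red) nonTB libraries and a bar at each mean. S100a4 is the gene whose groups overlap, and Hspa1a goes from a mean of 12.3 to 245 CPM.

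The same genes were read within Cd209a cells alone, which were 75.9% and 67.3% of the 2 groups. Plain CPM of Clec10a ran from 0 to 29.6 in control libraries and from 152 to 259 in allergy libraries. Its neighbour Mgl2, too low to enter the test, ran from 16.6 to 70.8 and from 129 to 136. Hspa1a ran from 9.87 to 33.2 and from 167 to 598. Tnfaip2 ran from 323 to 426 and from 15.2 to 48.5, and Mt1 from 760 to 1739 and from 424 to 841. Among the called genes Mt1 alone overlapped in these cells, and the rest kept apart, as did Mgl2. Over all members the groups did not overlap in 245 of the 1655 genes tested. The Cd209a cells are most of the members that gave the calls, so these ranges repeat the calls and do not test them.

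These 12 calls rest on few libraries. Leaving out a library gave from 1 to 33 calls, not all of them among the 12. Without allergy library 1 just 1 call (Hspa1a) was left. Without control libraries 1, 2 and 3 there were 5, 7 and 23 calls, which held 4, 4 and 7 of the 12. Without allergy libraries 2 and 3 there were 33 and 23 calls, which held 12 and 6 of the 12. Without run date in the model 1 gene passed, and with at least 3 UMIs of Sirpa, Cd209a and Clec4a4 asked of each cell 4 passed.

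Of 12 lists of markers of other cells and RNA quality, 1 was higher in allergy without overlap, the mast cell list, and 2 were lower without overlap. The 10 measured genes of the mast cell list summed to 6.77 to 15.3 CPM in the control libraries, where 9 of the 10 were at 0, and to 46.5 to 126 CPM in allergy, where 3 were at 0. Mcpt1 was at 0 UMIs in 79 control members and 12 UMIs in 49 allergy members. In plasma cells of the same libraries, which do not make it, Mcpt1 stood at 1.35 and 147 CPM. The list of stromal, endothelial and epithelial genes summed to 193 to 344 CPM in controls, where 9 of 13 were at 0, and 148 to 178 CPM in allergy, also with 9 at 0. The other 9 lists overlapped. The macrophage list summed to 475 to 1062 CPM in controls and 423 to 542 CPM in allergy, the CCR7-positive list to 338 to 367 and 267 to 650 CPM, and the T cell list to 15.3 to 94.7 and 9.29 to 59.3 CPM. The RNA quality list, mostly mitochondrial transcripts, summed to 44753 to 50452 CPM in controls and 40422 to 44622 CPM in allergy. Of that list 1 of 10 genes rose, and 7 were lower at an unadjusted p under 0.05. The part of these in the gene changes was not tested.

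Read by function, few lists held a called gene. Among MHC class II and antigen processing genes 0 of 10 tested rose and 1, Cst3, fell (median log2 change 0.08, against -0.01 over all genes). Of 12 transcription factors 0 passed. Cebpb, a stress and inflammation factor, was nearest, at 102 ± 48.8 and 261 ± 47.8 CPM (log2 fold change 1.48, edgeR adjusted p = 0.0809), followed by Id2 at 92.3 and 239 CPM (adjusted p = 0.127). Of 6 costimulation genes 0 passed. Cd86, the ligand of CD28, was at 104 and 147 CPM (adjusted p = 0.582), and Traf1 at 199 and 241 CPM (adjusted p = 0.777). Among 3 cytokines 0 passed. Tgfb1 was at 532 and 333 CPM (adjusted p = 0.195) and Il1b at 1968 and 1323 CPM (adjusted p = 0.39).

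Of 5 chemokines 0 passed, and the type 2 chemokine Ccl17 was at 72.7 ± 60.0 and 208 ± 196 CPM (log2 fold change 1.24, adjusted p = 0.483). Of 5 migration receptors 0 passed. Ccr1 was at 177 and 88.4 CPM and Ccr9, the gut-homing receptor, at 54.6 and 85.5 CPM (adjusted p = 0.227 and 0.637). Of 4 genes of the type 2 cytokine response 0 passed, and Irf4 was at 92.2 and 52.0 CPM (adjusted p = 0.426). Of 22 immediate early and NF-kB feedback genes 0 passed, with Dusp1, a MAP kinase phosphatase, at 440 and 791 CPM (adjusted p = 0.06) and Jun at 291 and 524 CPM (adjusted p = 0.191). Of 8 heat shock chaperones Hspa1a passed, and the list's median log2 change was 0.32. The 2 interferon genes tested, Ifitm3 at 1263 and 1260 CPM and Bst2 at 198 and 192 CPM, had adjusted p of 0.991 and 0.95. Of 2 Fc receptor genes and 6 cell cycle genes 0 passed.

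In Peyer's patches the comparison rested on 4 libraries of run date 5, with 12 to 17 members each, which may share animals. Of 2089 genes 0 passed (edgeR adjusted p under 0.05, 0% of those tested), 219 were under an unadjusted p of 0.05, and DESeq2 called 1, Psap, a lysosomal saposin precursor, at 397 and 1403 CPM in control and allergy. Fcer1g, the shared Fc receptor gamma chain, was at 508 and 431 CPM in controls and 829 and 1059 CPM in allergy (adjusted p = 0.314). Isg15, an interferon-induced modifier, was at 19.8 and 15.8 CPM in controls and 224 and 79.9 CPM in allergy (adjusted p = 0.323), and Ifitm3 at 851 and 158 CPM and at 1531 and 1139 CPM (adjusted p = 0.44). Cebpb was at 72.6 and 26.3 CPM in controls and 137 and 766 CPM in allergy, with the allergy libraries far from each other (adjusted p = 0.323). Hspa1a was at 72.6 and 184 CPM and at 449 and 213 CPM (adjusted p = 0.425). Both allergy libraries lay above both controls in Psap, Fcer1g, Isg15, Ifitm3, Cebpb and Hspa1a, as they did in 21.7% of all genes tested, and below both controls in 19.9%. Among the latter were Traf1 at 548 and 552 CPM in controls and 244 and 373 CPM in allergy, Fosb, Mcm5 and Cd24a (adjusted p from 0.323 to 0.419). Leaving out a library gave from 0 to 36 calls, with 36 without allergy library 9 and 17 without control library 10, each of which leaves 1 sample in a group. Of the 3 interferon genes tested 0 passed, with a list median of 1.43 against 0.02 over all genes. Of the 12 lists of other cells and RNA quality 3 were higher in allergy without overlap, 5 were lower and 4 overlapped. The mast cell list summed to 6.80 to 16.7 CPM in controls and 81.6 to 131 CPM in allergy. The monocyte and neutrophil list summed to 563 to 1394 and 1569 to 3167 CPM, and the plasma cell list to 524 to 697 and 789 to 792 CPM. The macrophage list overlapped, at 290 to 388 and 381 to 1053 CPM. Lower were the T cell, CCR7-positive, ILC and NK, stromal, and RNA quality lists, the last at 44196 to 48493 and 39749 to 39801 CPM. In allergy library 10, 108 of the 115 Cebpb UMIs lay in 2 cells, as did 61 of the 67 UMIs of the macrophage gene Apoe. The part of these lists was not tested.

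The change in lamina propria was then tested against that in Peyer's patches in 1 model with the 6 nonTB libraries and 1 sum per condition of run date 5. A difference between tissues passed for 6 of 2809 genes, 0.214% of those tested (edgeR adjusted p under 0.05). Hspa1a (difference of log2 changes 3.05, adjusted p = 0.0125) and S100a4 (2.45, adjusted p = 0.0144) changed more upwards in lamina propria. S100a4 stood at 102 and 340 CPM there and at 2296 and 1430 CPM in the patches. Apoe (-4.80, adjusted p = 0.0028), Plac8 (-1.83, adjusted p = 0.0028), the endotoxin co-receptor Cd14 (-3.97, adjusted p = 0.0125) and the neutrophil chemokine Cxcl2 (-4.24, adjusted p = 0.0251) differed the other way. Cd14 stood at 89.2 and 104 CPM in lamina propria and at 8.47 and 166 CPM in the patches, and Cxcl2 at 437 and 443 CPM and at 5.65 and 109 CPM. The patch rises of Apoe, Cd14 and Cxcl2 lay in 1 library: allergy library 10 held 67, 44 and 28 of their UMIs and allergy library 9 held 5, 0 and 1, and in library 10 the 2 highest cells held 61, 43 and 26. Without library 10 S100a4 alone of the 6 passed (2.72, adjusted p = 0.0091), and Apoe (-2.29, adjusted p = 0.638), Plac8 (-1.28, adjusted p = 0.0933), Cxcl2 (-0.78, adjusted p = 0.947) and Hspa1a (2.48, adjusted p = 0.0933) did not, while Cd14 changed sign (3.87, adjusted p = 0.784). Without patch control library 10 Apoe alone of the 6 passed (adjusted p = 0.0279). The patch side had no replicate and took its spread from lamina propria. With the 4 patch libraries as units S100a4 alone of the 6 passed (adjusted p = 0.0343), and by DESeq2 Plac8 alone (adjusted p = 0.0013).

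Control members of the tissues were compared to ask how type 2 cells of the lamina propria differ from those of Peyer's patches. Of 2111 genes 85 passed (edgeR adjusted p under 0.05), which is 4.03%, 59 higher and 26 lower in lamina propria. Tissue, sort and run date cannot be told apart here, and the patches gave 2 sums, of 10 cells on date 1 and 32 on date 5. The date 1 sum joined 5 cells each of location codes CD and CI. DESeq2 called 45, and leaving out a unit gave from 38 (without nonTB control library 2 or 3) to 154 calls (without patch run date 1).

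Of 5 C-type lectins 3 were higher in lamina propria. Cd209d stood at 118, 93.5 and 114 CPM and was at 0 UMIs in both patch sums (at least 14.5-fold higher against a floor of 3 UMIs over the group, edgeR adjusted p = 0.0037). Cd209b stood at 142, 26.7 and 141 CPM and also at 0 UMIs (at least 14.5-fold higher, adjusted p = 0.0232), and Clec4n, the fungal receptor Dectin-2, at 178 ± 66.3 against 12.7 ± 18.0 CPM (adjusted p = 0.01). These Cd209 genes are close relatives of the rule gene Cd209a, whose share differed between the tissues. Cd209d was not absent from all patch members, since 3 of 20 patch Cd209a cells, outside these control sums, held 6 UMIs. Of 10 intestinal dendritic cell surface genes 3 were higher. They were Itgae, the alpha chain of CD103 (107 ± 21.3 and 14.8 ± 8.91 CPM, adjusted p = 0.0153), Csf2rb, a chain of the GM-CSF receptor (246 and 81.6 CPM, adjusted p = 0.01), and Cd14 (90.0 and 9.50 CPM, adjusted p = 0.0264).

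Of 22 immediate early and feedback genes 4 were higher and 0 lower, with a list median of 0.75 against 0.03 over all genes. Nfkbiz stood at 284, 240 and 282 CPM against 10.5 and 31.0 CPM, with no overlap (log2 difference 3.34, SE 0.37, edgeR adjusted p = 0.0013). Atf3, Dusp2 and Ier2 were the others. Of 5 cytokine genes 2 were higher. Il22ra2 stood at 197, 421 and 180 CPM against 42.1 and 16.9 CPM (log2 difference 3.47, adjusted p = 0.0071) and Tgfb1 at 547 and 235 CPM (adjusted p = 0.0423). Cxcl2 stood at 608, 474 and 239 CPM against 0 and 5.64 CPM (adjusted p = 0.0013), a ratio of summed counts of 78.3 from 2 patch UMIs (95% counting interval 21.4 to 651). The transcription factors Batf (124 and 24.6 CPM, adjusted p = 0.0264) and Runx1 (140 and 2.82 CPM, adjusted p = 0.0029), Socs3 and Mt1 (856 and 57.3 CPM, adjusted p = 0.0033) were also higher. Plasma cell transcripts moved with tissue too, with a list sum of 4339 to 7227 CPM in lamina propria and 524 to 697 CPM in the patches, and their part in other genes was not tested.

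Peyer's patch cells carried more S100a4 (1864 and 2294 CPM against 63.2, 6.67 and 239 CPM, log2 difference -4.16, SE 0.63, edgeR adjusted p = 0.0058). They also carried more Ccr6, the receptor for CCL20, at 126 and 79.0 CPM against 0, 13.4 and 11.8 CPM (adjusted p = 0.0337), and of 6 migration receptors it was the 1 lower in lamina propria. Pglyrp1, a peptidoglycan-binding protein, stood at 579 ± 149 against 81.8 ± 36.8 CPM (adjusted p = 0.0029), the cyclin Ccnd1 at 404 ± 84.2 against 63.1 ± 39.0 CPM (adjusted p = 0.0038) and the growth factor Mdk at 109 against 1.31 CPM (adjusted p = 0.0058). The MHC class II list split, with H2-DMb1 and Cst3 higher in lamina propria and Ifi30, a lysosomal thiol reductase, and H2-Oa higher in the patches. Hspa1a was at 1780 and 130 CPM in the patches, dates far apart from each other, and at 12.7 ± 9.40 CPM in lamina propria (adjusted p = 0.014). Of 9 heat shock chaperones it was the 1 that passed.

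**Figure D4:**
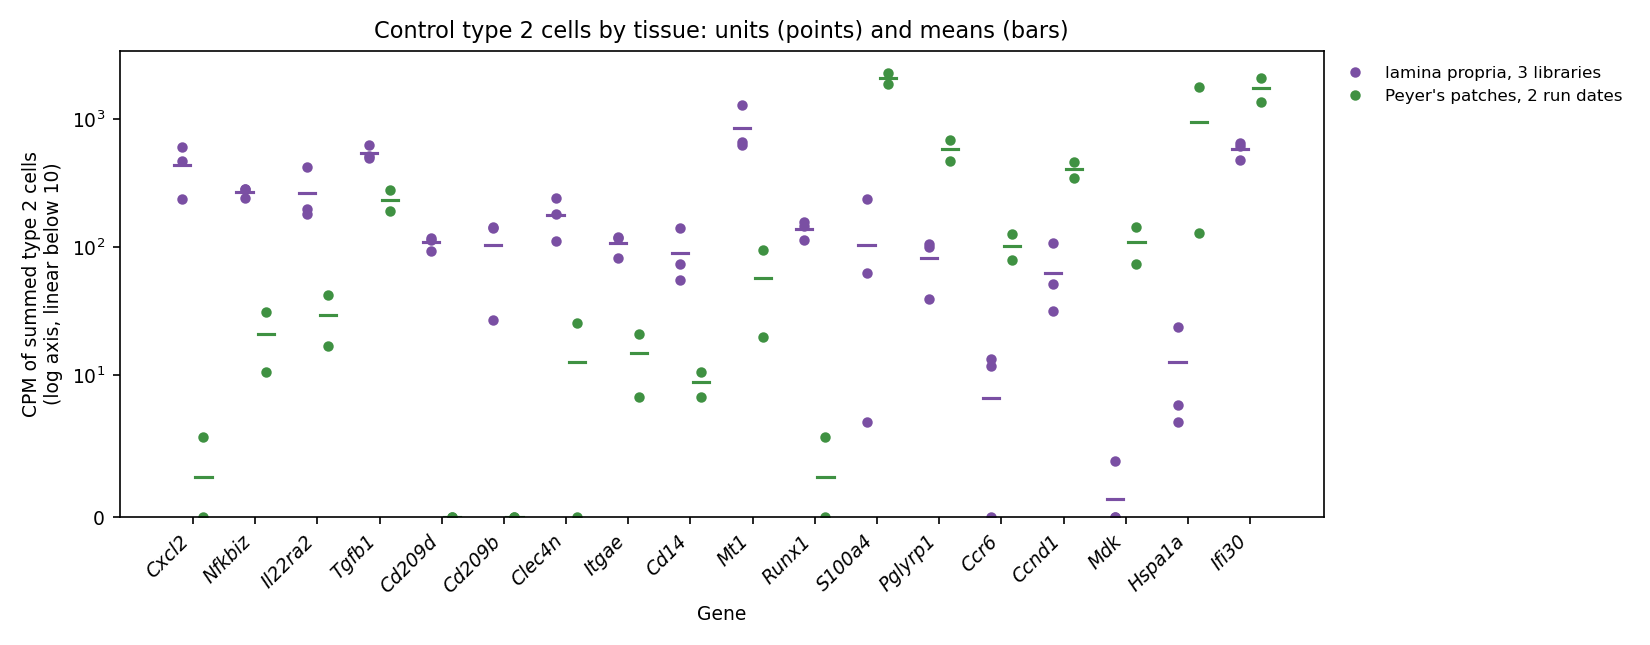
TMM-scaled CPM of summed control members (y axis, logarithmic above 10 and linear below) for 18 genes (x axis), with 3 lamina propria libraries in purple, 2 Peyer's patch run dates in green and bars at the means. Cd209d and Cd209b are at 0 in both patch sums, and the patch values of Hspa1a lie at 130 and 1780 CPM.

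Type 2 cells were set beside type 1 cells of the same libraries or run dates in 8 pairs of sums, 6 from nonTB libraries and 2 from patch run date 5. The 300 type 1 cells met the same outer clauses with at least 2 UMIs of Xcr1 and Clec9a, none of Cd209a or Clec4a4 and at most 1 of Ccr7. The genes of the rules were left out of the counts of called genes. Both classes were chosen on measured genes, so the counts describe how far 2 gates lie apart. Of 2821 genes 839 passed (edgeR adjusted p under 0.05), which is 29.7%, 416 higher and 423 lower in type 2 cells.

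The largest differences in favour of type 2 cells among the named genes were those of Ccr1, Siglece, Cybb, Ltb and S100a4. Ccr1, a receptor for inflammatory chemokines, gave 199 UMIs in type 2 and 1 UMI in type 1 sums, a ratio of 364 (95% counting interval 64.6 to 14445), and Siglece, an inhibitory sialic acid receptor, gave 105 and 0 UMIs, at least 64.0-fold higher against a floor of 3 UMIs over the group. Fcer1g stood at 634 ± 176 and 92.1 ± 59.6 CPM (log2 difference 2.77, SE 0.20, edgeR adjusted p = 1.8e-09, n = 8), and Ltb at 673 ± 260 and 19.9 ± 27.3 CPM (log2 difference 5.04, SE 0.29, adjusted p = 8.1e-11). Of 7 migration receptors 4 were higher, among them Ffar2, a receptor for short-chain fatty acids (136 and 4.50 CPM), and Gpr183, the oxysterol receptor that places these cells in lymphoid tissue (146 and 71.0 CPM). Both genes tested of the type 2 cytokine response were higher, Crlf2, the chain that binds TSLP, at 144 and 72.0 CPM (adjusted p = 0.0002) and Socs3 at 188 and 24.5 CPM (adjusted p = 2.9e-05). Of 20 immediate early and feedback genes 11 were higher and 1, Klf2, lower (list median 0.58 against -0.02 over all genes), and Tnfaip3, a brake on NF-kB, stood at 147 and 24.3 CPM. Il1b stood at 1663 and 546 CPM and was higher in 8 of 8 pairs (adjusted p = 2.6e-05), though at 1448 and 1405 CPM in the patch controls. In the patches alone Il1b (log2 difference 0.43) and Socs3 (0.87) did not pass.

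Genes lower in type 2 cells included those of the type 1 programme. Irf8 stood at 71.4 ± 54.7 and 1689 ± 237 CPM (log2 difference -4.61, SE 0.21, edgeR adjusted p = 3.4e-12, n = 8). Tlr3, the sensor of double-stranded RNA, gave 3 UMIs against 247, a ratio of 0.0222 (95% counting interval 0.00455 to 0.0657). The tetraspanin Cd81 stood at 7.75 and 292 CPM, Cst3 at 4688 and 22425 CPM and Itgae at 66.0 and 180 CPM. All 10 tested genes of the type 1 list were lower. Among 15 transcription factors 7 were higher, Cebpb (196 and 21.0 CPM) and Klf4 among them, and 4 lower (Irf8, Rbpj, Id2 and Batf3). Of 13 MHC class II and processing genes 4 were higher and 4 lower. In nonTB libraries alone 546 genes passed.

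CCR7-high cells, 242 cells that met the outer clauses with at least 2 UMIs of Ccr7, could be paired with type 2 cells in 4 units, 1 nonTB control library, patch controls of run dates 1 and 5 and patch allergy of run date 5. Of 3074 genes 151 passed (edgeR adjusted p under 0.05), which is 4.91%, 22 higher and 129 lower in type 2 cells, and DESeq2 called 93. Of 14 costimulation and maturation genes 7 were lower and 0 higher (list median -0.91 against 0.02 over all genes). Fscn1, the actin bundler of matured dendritic cells, stood at 62.3 ± 50.7 and 896 ± 363 CPM (log2 difference -4.12, SE 0.37, edgeR adjusted p = 2.3e-05, n = 4), and Socs2 at 12.8 and 267 CPM. Of 5 chemokines 4 were lower, with Ccl22, which draws CCR4-bearing T cells, at 9.81 and 243 CPM and Cxcl16 at 110 and 512 CPM. Il6 stood at 34.6 and 110 CPM (adjusted p = 0.0077). Of 23 immediate early and feedback genes 0 were higher and 4 lower, Klf2, Klf6, Nfkbia and Gadd45b (list median -0.39). Gpr183 was lower too, at 153 and 282 CPM (edgeR adjusted p = 0.0128). Nfkbia and Gpr183 thus stood above their level in type 1 cells and below that in CCR7-high cells. Genes higher in type 2 cells were fewer and smaller, such as Ms4a6c at 493 and 269 CPM and Sla at 237 and 102 CPM. Of 8 intestinal surface genes 0 passed, and Itgb7, a chain of the gut-homing integrin, stood at 110 and 70.8 CPM (adjusted p = 0.114). Of the genes higher than in type 1 cells, Ltb (1032 and 846 CPM, log2 difference 0.24, SE 0.16) and Il1b (1792 and 1646 CPM, log2 difference 0.12, SE 0.14) did not pass against CCR7-high cells, with adjusted p of 0.51 and 0.748, and the 2 contrasts were not tested against each other.

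**Figure D5:**
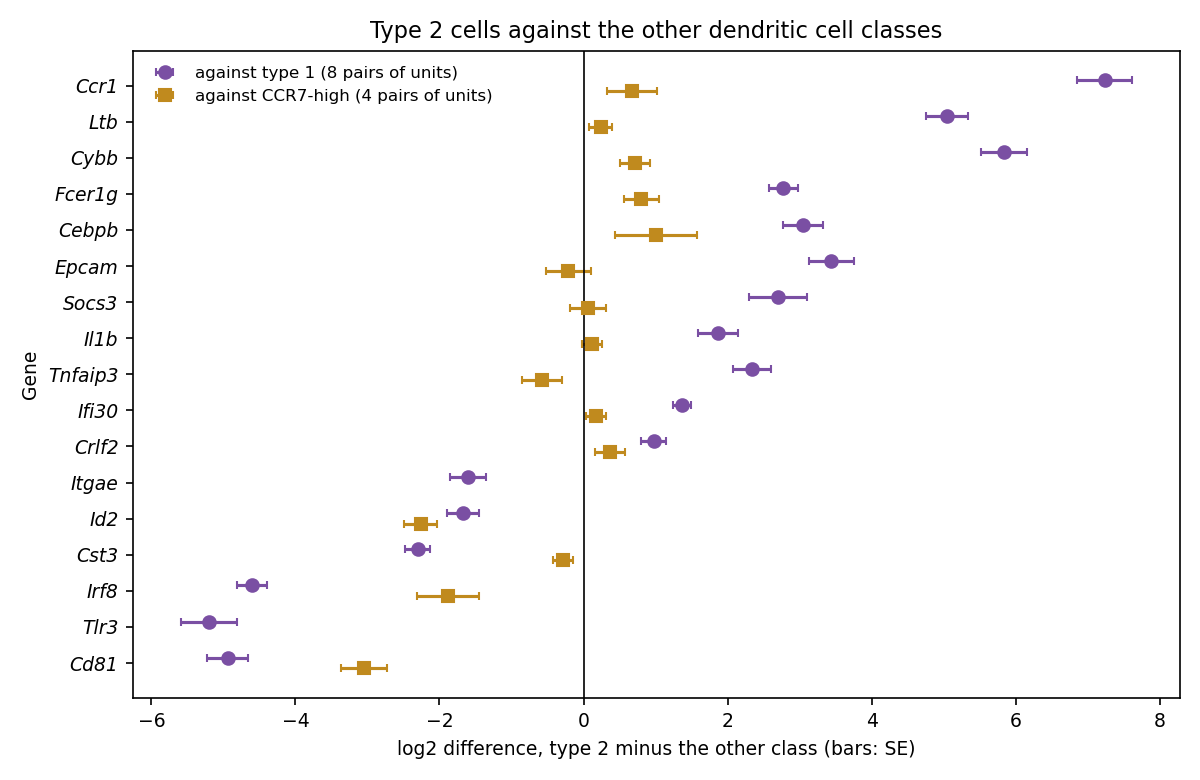
Log2 difference (x axis, type 2 minus the other class, bars 1 SE) for 17 genes (y axis) against type 1 cells (circles, 8 pairs of sums) and CCR7-high cells (squares, 4 pairs, missing where a gene was too low to test). Ltb lies at 5.04 against type 1 cells and at 0.24 against CCR7-high cells, and Irf8 is below 0 against both.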

How the data were processed

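Deposited values were raw UMI counts per gene and cell of 19221 genes, with 1 gene list and 1 cell list, made by the authors from 3' droplet libraries. Cell Ranger, bcl2fastq, Bowtie2, RSEM and build mm10 are named in the submitters' processing notes, without versions. The smallest cell held 501 UMIs, 27 of the 28 single-cell samples had cells (allergy library 1 of Peyer's patches was not analysed here), and the bulk libraries were not used. Members were taken by the count rule, and UMIs were summed per library, or per condition and run date in Peyer's patches, where at least 10 members were present. Sums were tested with edgeR 4.0.16 (quasi-likelihood, filterByExpr, TMM, Benjamini-Hochberg at 0.05) in R 4.3.3, with DESeq2 1.42.0 as an alternative, after a check on simulated data. CPM of sums in a test are TMM-scaled, and those of the IgDLow pair, plasma cells, marker lists and groups of cells are plain. The Peyer's patch gene test was planned on sums per run date, but just 1 date had 10 members in both conditions, so libraries of that date were the units. Doublets were called with Scrublet in scanpy 1.11.5, per library (1170 cells), and kept. Summed members held 107614 to 279935 UMIs in nonTB libraries and 110273 to 179268 in the patch libraries tested. Intervals and floors cover counting error only, at 95% confidence.

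Named genes were, per comparison, up to 10 of the largest rises and 10 of the largest falls among called genes with a mean of at least 50 CPM in 1 group and, for allergy, the same direction on every run date, leaving out gene models, ribosomal, mitochondrial, immunoglobulin and T cell receptor genes and genes of other cells. Up to 4 called members of each of 16 role lists were added, or 2 where none was called. Outside that rule, and after their values were seen, Neat1, mt-Nd3, Mgl2, Hspa1b, Psap, Apoe, Plac8, the genes of the Cd209a and Sirpa sides, and Ltb and Il1b against CCR7-high cells were named. The 12 lists of other cells gave the sums. Members and lists were chosen with earlier results of these data known. Positions are from GENCODE M21 (mm10).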

Additional observations from a re-analysis of the deposited data

Results flagged for a closer look

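The share of type 2 cells in Peyer's patch controls of run date 5, 0.663%, stood far from the other 4 control dates, which lay between 0 and 0.117%. Allergy samples of the same date were also the highest of their group, at 0.502%. The criterion for such a gap is set to flag about 1 of 20 groups by chance, a rate that was not measured on these data.

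For 6 genes the model that joins the tissues flagged a difference between the allergy changes in lamina propria and Peyer's patches. The patches had 1 sum per condition there, so the test did not measure the spread between patch samples. With the patch libraries as units S100a4 alone of these genes passed. The log2 change in lamina propria minus that in the patches was 3.05 for Hspa1a, 2.45 for S100a4, -4.24 for Cxcl2, -1.83 for Plac8, -4.80 for Apoe and -3.97 for Cd14. Apoe stood at 95.6 and 43.3 CPM in lamina propria controls and allergy and at 19.8 and 271 CPM in the patches, where 67 of the 72 allergy UMIs came from library 10, and Plac8 at 2687 and 2170 CPM and at 805 and 2319 CPM. Apoe is on the macrophage list and Plac8 on the monocyte list. In the patch libraries of run date 5 the monocyte list summed to 563 to 1394 CPM in controls and 1569 to 3167 CPM in allergy, and its part in these differences was not tested. Without patch allergy library 10 the difference passed for S100a4 alone of the 6 genes.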

How the results depend on the processing

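Counts of called genes moved most. For allergy in nonTB members the 12 calls became 2 by DESeq2 (2 higher, 0 lower), 51 with no filter on low counts, 4 with at least 3 UMIs of Sirpa, Cd209a and Clec4a4, 1 without run date, and 1 to 33 without 1 library, while at least 20 UMIs of Cd74 and at least 2000 UMIs a cell both gave 12 and removal of doublets 15. With the replicate block 20 genes passed, the 12 included. The numbers did not pair the samples (correlations of deviations 0.0212, -0.0369 and 0.184, and 1 of 3 controls closest to its own number). In Peyer's patches 0 calls became 1 by DESeq2, 54 with no filter and 0 to 36 without 1 library. For the tissues 85 became 45 by DESeq2, 214 with no filter and 38 to 154 without 1 unit. For the difference of allergy changes 6 became 1 by DESeq2, 2 with patch libraries as units, 11 without doublets, 20 with no filter and 1 to 25 without 1 library (4 without patch allergy library 10, 1 of them among the 6, and 1 without patch control library 10). Against type 1 cells 839 became 546 in lamina propria alone and 1581 with no filter, and against CCR7-high cells 151 became 93 by DESeq2 and 337 with no filter. No filter tests more genes, leaving out libraries tests fewer samples, and for the other settings the cause was not tested. The nonTB share was lower in allergy under every alternative run, from -0.52 to -0.157 points for shares not limited by Cd74 and -0.864 points for shares of Cd74-positive cells. The -0.157 points are of thinned cells, without those under 1500 UMIs. The Peyer's patch share reversed to -0.0229 with libraries as units and ran from -0.0762 (without run date 4) to 0.0543 without 1 date. Log2 changes under the test's threshold that changed sign were Bst2 in nonTB members (0.16 without doublets, -0.21 to 0.069 without 1 library) and Ifitm3 (-0.035 with no filter, -0.011 without run date, -0.23 to 0.38 without 1 library). In the patches they were Nlrp3 (-0.94 to 0.29), Smad7 (-0.46 to 0.74) and Ccr2 (-0.28 to 3.19) without 1 library. For the difference between tissues they were Smad7 (-0.52 to 0.71), Ccr2 (-3.43 to 0.027) and Id2 (-0.011 to 1.61), and Cd14, called, ran from -7.61 to 3.87, the last without patch allergy library 10. The settings for the patch libraries, the units left out of the tissue comparison and of the difference between tissues and the patch libraries as units were chosen after seeing the data. Not run were a test between the sides, patch genes with run dates left out, without run date or with at least 3 UMIs, since too few sums held 10 cells. With 14 to 31 members a library, genes of a few UMIs are limited by depth.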
